A study of Rattus norvegicus with 35 samples.

Results

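Triadimefon at 30 uM was compared with its vehicle, DMSO at 0.1%, in primary rat hepatocytes, the metabolic cells of the liver taken from the animal and kept in culture. The comparison held the 3 arrays titled for triadimefon at 30 uM and the 3 titled for DMSO, 6 of the 35 arrays of the series, chosen by title alone. RNA was taken after 72 h of exposure through the medium and hybridized to Affymetrix Rat Genome expression arrays. In their titles the arrays carry a code, Rs256, Rs293 or Rs304, with 1 array per code in each group, and groups were compared within a code. The triadimefon groups at 10 and 100 uM, and the myclobutanil and propiconazole groups at 30 uM, are used for dose and for related compounds; each also had 3 arrays with these codes and the same exposure time. The design text calls the arrays of a group biological replicates, but the labels do not say whether a code marks an animal, a cell preparation or a day. The p-values rest on 1 residual spread per gene, taken over all 35 arrays and 12 groups after the Rs code was fitted. It was then moderated across genes. They are thus not based on the spread of the triadimefon 30 uM and DMSO arrays alone. The spread may be technical in part. Strain, sex and age are not given in the sources used here.

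Triadimefon is a triazole fungicide. Triazoles block the fungal sterol demethylase, and mammals carry the same enzyme, Cyp51, midway along the path from acetyl-CoA to cholesterol. When sterols run low in the endoplasmic reticulum, the factors SREBP-1 and SREBP-2 move to the nucleus and turn on genes of cholesterol and fatty acid synthesis and of fatty acid desaturation. Many triazoles also act on the nuclear receptors PXR and CAR, which raise liver cytochromes P450 of the Cyp2b, Cyp2c and Cyp3a families, conjugating enzymes and transporters. Another receptor, PPARalpha, senses fatty acids and turns on genes that take up and oxidize them. These statements are general background and not results of the arrays.

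Promoter sequences of 6 of the genes that rose are shown because these families are classically controlled near the start of the gene. All 6 carry a marked match and so do not represent the genes that rose. They are RefSeq sequences of rat build GRCr8, the 150 bases before the annotated start, 5′ to 3′ on the strand of the gene. Capitals mark a CCAAT box (CCAAT, or its reverse ATTGG), the box CACNCCAC of sterol-responsive promoters, or a direct repeat of the receptor half-sites AGGTCA or AGTTCA with a spacer of 3 bases, searched on both strands.
Scd2, chr1:253118227-253118376, plus strand: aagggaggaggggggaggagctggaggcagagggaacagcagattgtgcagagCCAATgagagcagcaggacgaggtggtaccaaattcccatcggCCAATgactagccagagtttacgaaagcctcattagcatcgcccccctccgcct
Fads1, chr1:216252542-216252691, plus strand: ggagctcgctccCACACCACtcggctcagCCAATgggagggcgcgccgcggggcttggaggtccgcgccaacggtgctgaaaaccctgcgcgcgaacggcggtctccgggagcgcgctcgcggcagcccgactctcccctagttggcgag
Tm7sf2, chr1:212789542-212789691, minus strand: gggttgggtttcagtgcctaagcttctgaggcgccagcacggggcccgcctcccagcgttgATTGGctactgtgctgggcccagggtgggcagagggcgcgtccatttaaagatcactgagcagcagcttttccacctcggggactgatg
Lss, chr20:12118231-12118380, minus strand: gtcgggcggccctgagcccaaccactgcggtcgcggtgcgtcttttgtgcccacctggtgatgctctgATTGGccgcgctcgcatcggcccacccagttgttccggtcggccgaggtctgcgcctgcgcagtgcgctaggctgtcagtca
Sc5d, chr8:51538278-51538427, minus strand: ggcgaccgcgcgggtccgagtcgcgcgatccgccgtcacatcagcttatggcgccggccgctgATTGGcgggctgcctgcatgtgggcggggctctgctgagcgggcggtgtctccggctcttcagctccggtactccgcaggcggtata
Cyp3a23-3a1, chr12:14398804-14398953, minus strand: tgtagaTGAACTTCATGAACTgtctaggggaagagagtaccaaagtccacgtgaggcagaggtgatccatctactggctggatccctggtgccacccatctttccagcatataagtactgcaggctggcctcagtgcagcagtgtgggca

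In the windows shown, the CCAAT boxes of Scd2 began 97 and 54 bases before the start. Those of Fads1, Tm7sf2, Sc5d and Lss began 121, 89, 87 and 82 bases before it. The box CACNCCAC of Fads1 lay 138 bases and the direct repeat of Cyp3a23-3a1 144 bases before the start. Over the 250 bases before the start, CCAAT was present in 11 of 14 promoters of sterol synthesis genes (78.6%), 3 of 7 of desaturation and elongation genes and 5 of 17 of PPARalpha target genes, against 34.02% of the 33469 promoters in the table. The box CACNCCAC was present in 2 of 14, 2 of 7 and 2 of 17 of these promoters, against 4.89% of all. The direct repeat was present in 13 of all 33469 (0.039%), and was not counted over the PXR and CAR list. A match describes letters only, and binding was not measured.

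Values are on the authors' log-like scale after quantile normalization, with the array median near 0. The base of the logarithm is not given in the sources used here, so differences are given in units of that scale and not as folds. If the control transcripts bioC, bioD and cre were added at the standard 5, 25 and 100 pM, a doubling corresponded to 0.487 units. A gene was called when its limma p, adjusted by Benjamini and Hochberg over all 10490 genes tested, lay below 0.05 in the fit with the Rs code as a replicate block.

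Triadimefon at 30 uM raised genes of sterol synthesis and fatty acid desaturation and a few cytochrome P450 and conjugation genes, and lowered genes of fatty acid oxidation. In all, 110 of 10490 genes were called (1.05%), with 64 higher (0.61%) and 46 lower (0.439%) than in DMSO. The differences of called genes had a median size of 0.281 units and ranged in size between 0.0981 and 1.73. The triadimefon and DMSO arrays did not overlap for 79 of the 110 called genes (71.8%), against 1141 of all genes tested (10.9%). All 110 had the same sign within each of the 3 codes, as had 4302 of all genes tested (41%). The median difference over all genes tested was -0.002. The shares of 0.61% and 0.439% over all genes stand beside every list count below. The lists themselves were chosen with earlier results of these data known.

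The number of calls rested on comparison within the codes. Without the replicate block 3 genes were called (0.0286%), namely Scd2, Acat2 and Ugt2b1, with 508 genes at an unadjusted p below 0.05 against 1361 with the block. Chance alone would give about 524, so the fit without the block held no excess of small p-values. Leaving out a whole code in all groups gave 7 calls without Rs256 (7 higher, 0 lower), 143 without Rs293 (59 higher, 84 lower) and 12 without Rs304 (6 higher, 6 lower). Of these, 5, 66 and 11 were among the 110, and without Rs293 the balance thus turned to more falls than rises. Leaving out 1 array gave 20 calls without the Rs256 triadimefon array, 41 without that of Rs293 and 38 without that of Rs304, and 18, 32 and 47 calls without the DMSO arrays of these codes, in the same order. On the values as deposited, without quantile normalization, 3 genes were called, 2 of them (Scd2 and Cxcl9) among the genes named here. All 48 called genes named by rule kept their sign under every alternative. As all 110 had 1 sign within each code, leaving out a code could not change it. The kept signs thus say little about stability.

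**Figure D1:**
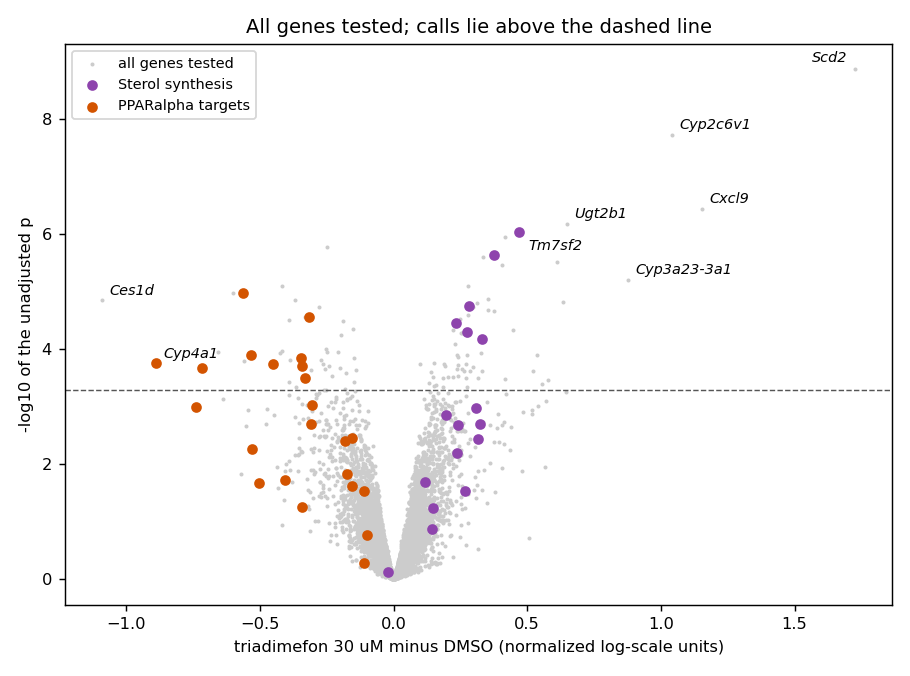
Difference between triadimefon 30 uM and DMSO (horizontal, normalized log-scale units) against -log10 of the unadjusted limma p (vertical) for the 10490 genes tested, 1 point each. Sterol synthesis genes (purple) lie right of 0 except Nsdhl (right of 0 as well on the values as deposited), PPARalpha targets (orange) all lie left of 0, and the 110 called genes lie on or above the dashed line.

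Among the fatty acid desaturases, which put double bonds into acyl chains, 3 were called and all 3 rose: Scd2, Fads1 and Fads2. Scd2, a stearoyl-CoA desaturase that makes monounsaturated fatty acids, had 2.27, 2.52 and 1.93 units in the triadimefon arrays, against 0.59, 0.90 and 0.049 units in the DMSO arrays, given here and below in rising order of the Rs code. The lowest triadimefon array thus stood well above the highest DMSO array. The difference was 1.73 units (SE 0.185, adjusted p = 1.47e-05), the largest among the called genes. The 3 other probe sets of Scd2 were called too and also higher, by 0.92, 0.32 and 0.27 units. Scd2 was called in the fits without the block, on the values as deposited and without each array or code.

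Fads1 and Fads2 are the front-end desaturases that make long polyunsaturated fatty acids. Fads1 had 2.11, 2.32 and 2.26 units with triadimefon, against 1.30, 1.82 and 1.73 units with DMSO, a difference of 0.61 units (SE 0.102, adjusted p = 0.00326). Fads2 had 0.89, 0.96 and 1.04 units with triadimefon, against 0.40, 0.70 and 0.58 units with DMSO, a difference of 0.40 units (SE 0.068, adjusted p = 0.00328). Neither gene's groups overlapped. Without the block the adjusted p of Fads2 was 0.27.

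Scd, the main stearoyl-CoA desaturase of liver, was not called. It had 3.75, 3.66 and 3.61 units with triadimefon, against 3.62, 3.54 and 3.20 units with DMSO (difference 0.22, SE 0.0737, adjusted p = 0.149), and the groups overlapped. These levels lay near the top of the scale, and whether a ceiling narrowed the difference was not tested. The elongases, which lengthen acyl chains, included no call. Elovl6 differed by 0.20 (SE 0.0692, adjusted p = 0.166), Elovl1 by 0.13 and Elovl2 by -0.14. Over the 8 desaturation and elongation genes tested, 3 rose and none fell, where 0.61% of all genes tested rose. The median difference was 0.211, against -0.002 over all genes. The list's count of 3 fell to 1 without Rs256, without Rs304, without the block and as deposited, and was 3 without each single array.

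The genes of sterol synthesis moved little each but nearly all one way. The median difference of the 17 tested was 0.266 units. Of them, 6 rose and none fell, where 0.61% of all genes tested rose and 0.439% fell. These 6 span the path: Acat2 (cytosolic acetoacetyl-CoA thiolase), Pmvk (a kinase of the mevalonate steps), Sqle (squalene epoxidase), Lss (lanosterol synthase), Tm7sf2 (the sterol reductase that can act on the product of Cyp51) and Sc5d (a late sterol desaturase). The other 11 were not called; 10 of these had positive differences and Nsdhl had -0.020 units, against 0.048 units as deposited. For 16 of the 17 genes the difference was positive within all 3 codes, as for 2040 of all 10490 genes tested.

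Tm7sf2 had 1.47, 1.93 and 1.60 units with triadimefon, against 1.06, 1.38 and 1.14 units with DMSO (difference 0.47, SE 0.0729, adjusted p = 0.00198). Acat2 had 1.36, 1.34 and 1.405 units with triadimefon, against 1.02, 0.96 and 1.01 units with DMSO (difference 0.37, SE 0.0614, adjusted p = 0.00296). Its 3 arrays of a group lay closer together than those of Tm7sf2, and for both genes every triadimefon array was above every DMSO array. Sc5d differed by 0.28 units (SE 0.0536, adjusted p = 0.00828), Pmvk by 0.28 (SE 0.0563, adjusted p = 0.0141) and Sqle by 0.23 (SE 0.0462, adjusted p = 0.0113), each again without overlap. Other probe sets of Sc5d differed by 0.095 and 0.20 units and were not called. That of Lss differed by 0.28 units and was called. Lss differed by 0.33 units (SE 0.0695, adjusted p = 0.017), with 0.81, 1.31 and 1.004 units with triadimefon, against 0.62, 0.88 and 0.63 units with DMSO. Its lowest triadimefon array, of Rs256, lay below the highest DMSO array, of Rs293, and the difference was positive within each code.

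Cyp51, the mammalian form of the fungicide's target enzyme, was not called. It had 2.49, 2.82 and 2.61 units with triadimefon, against 2.18, 2.43 and 2.34 units with DMSO. The groups did not overlap, and the difference was 0.32 units (SE 0.0933, adjusted p = 0.0868). Mvd and Fdft1, which act before squalene, and Ebp, which acts late, were also just outside the threshold. They differed by 0.31 (adjusted p = 0.0656), 0.20 (adjusted p = 0.0737) and 0.24 (adjusted p = 0.0877). Msmo1 and Idi1 differed by 0.32 and 0.27 units without passing the test. The sterol count of 6 fell to 2 without Rs256, 3 without Rs293 and 0 without Rs304, ranged between 2 and 5 without single arrays, and was 1 without the block and 0 as deposited. The median stayed between 0.229 and 0.322 under these alternatives.

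Further groups of SREBP-linked genes were less uniform. Of 11 genes of cholesterol sensing and uptake, 2 rose and none fell, where 0.61% of all genes tested rose. The median difference was 0.068. Insig1, which holds SREBP in the endoplasmic reticulum and is itself an SREBP target, had 3.32, 3.23 and 3.06 units with triadimefon, against 2.91, 2.68 and 2.77 units with DMSO (difference 0.42, SE 0.0654, adjusted p = 0.00199). Stard4, a carrier of sterols between membranes, differed by 0.19 units (SE 0.0426, adjusted p = 0.0282) with overlapping groups. Its other probe sets differed by 0.002 and 0.185 units and were not called. The transcripts of the factors themselves were not called, with differences of 0.075 units for Srebf1 and -0.024 units for Srebf2, the second of which was 0.030 units as deposited. Without Rs256 none of the list was called.

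Of 23 genes of fatty acid and triglyceride synthesis and storage, 2 rose and 1 fell, where 0.61% of all genes tested rose and 0.439% fell. The median difference was 0.012. Acss2, which makes acetyl-CoA from acetate, differed by 0.38 units (SE 0.0723, adjusted p = 0.00885). Pnpla3, a lipid droplet enzyme, had 1.17, 0.96 and 0.73 units with triadimefon, against 0.35, 0.57 and 0.36 units with DMSO (difference 0.52, SE 0.122, adjusted p = 0.0299). Fasn, fatty acid synthase, differed by 0.17 units and Acaca, acetyl-CoA carboxylase, by 0.055 units, and neither was called. The fall was that of Ces1d, a carboxylesterase that hydrolyses lipid esters in liver. It had 0.45, 0.60 and 0.49 units with triadimefon, against 1.77, 1.32 and 1.71 units with DMSO. This difference of -1.09 units (SE 0.202, adjusted p = 0.00787) was the lowest of all genes tested. Without Rs256 none of the list was called, and Ces1d was called in 5 of 9 fits that left out a code or an array.

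**Figure D2:**
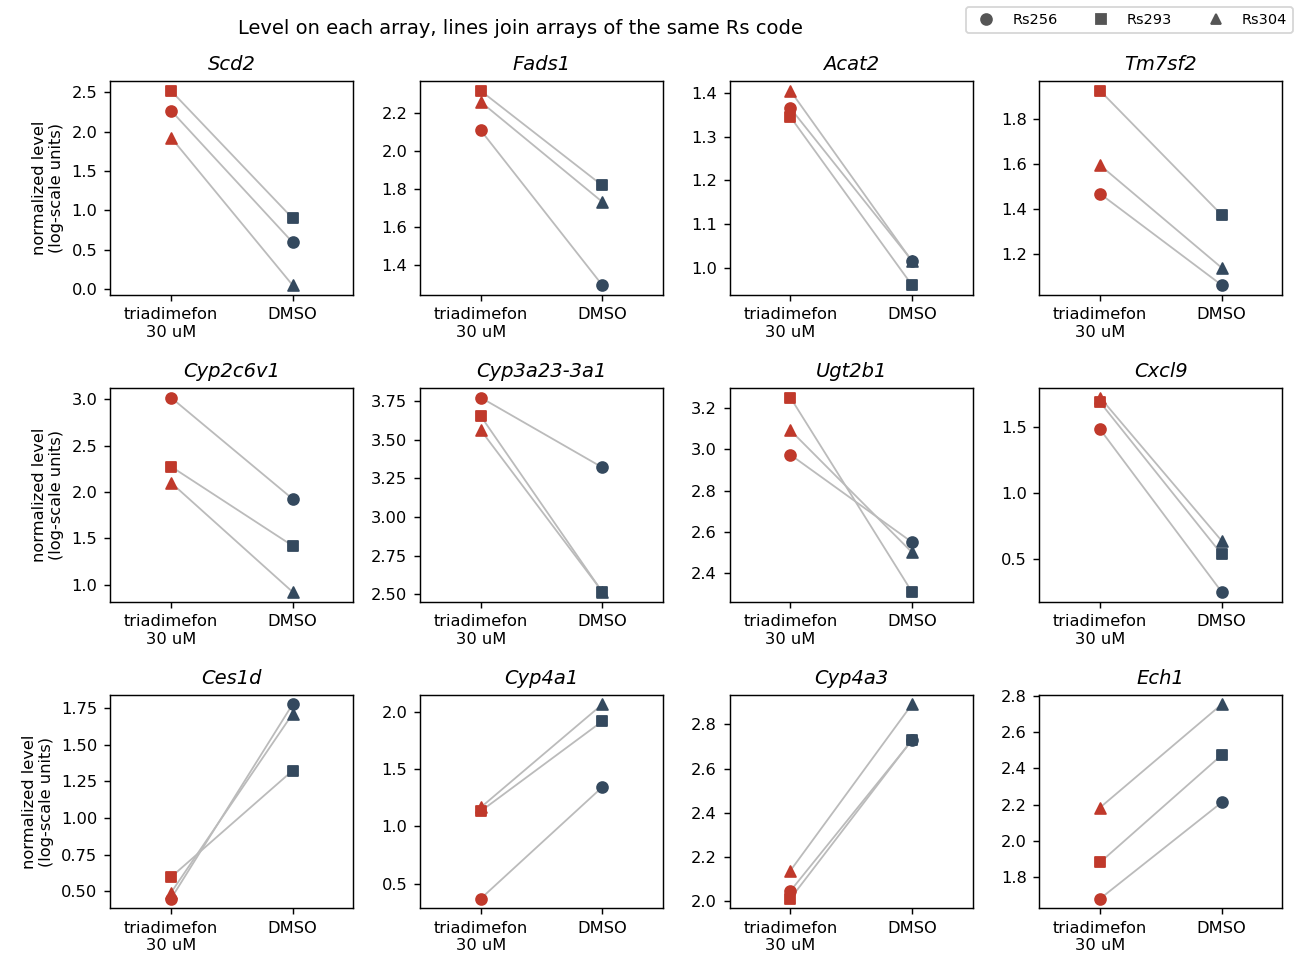
Normalized level (log-scale units) of 12 called genes on each array, with triadimefon 30 uM at the left and DMSO at the right of each panel; marker shapes give the Rs code and lines join arrays of a code. Scd2, Fads1, Acat2, Tm7sf2, the 3 xenobiotic genes and Cxcl9 lie higher with triadimefon in every code, and Ces1d, Cyp4a1, Cyp4a3 and Ech1 lie lower.

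Drug metabolism genes gave some of the largest rises, but few of the list passed the test. Of 19 PXR and CAR target genes tested, 3 rose and 1 fell, where 0.61% of all genes tested rose and 0.439% fell. The median difference was 0.158. Cyp2c6v1, a cytochrome P450 of the phenobarbital-inducible kind, had 3.02, 2.28 and 2.10 units with triadimefon, against 1.93, 1.42 and 0.92 units with DMSO (difference 1.04, SE 0.128, adjusted p = 9.95e-05). Cyp3a23-3a1, the classical PXR target of rat liver, had 3.77, 3.65 and 3.56 units with triadimefon, against 3.32, 2.52 and 2.52 units with DMSO (difference 0.88, SE 0.154, adjusted p = 0.00547). Its DMSO array of Rs256 was the highest of the 3, and the difference within Rs256 was 0.45 units, against 1.14 within Rs293 and 1.04 within Rs304. Neither gene's groups overlapped.

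Ugt2b1, an enzyme that joins glucuronic acid to steroids and drugs, had 2.97, 3.25 and 3.09 units with triadimefon, against 2.55, 2.31 and 2.50 units with DMSO (difference 0.65, SE 0.0984, adjusted p = 0.00177). It was also the only call among 16 phase II conjugation genes tested, where 0.61% of all genes tested rose. Slco1b2, an uptake carrier for bile acids and drugs, was the member that fell, with -0.17, -0.16 and -0.086 units with triadimefon, against 0.064, 0.079 and 0.19 units with DMSO (difference -0.25, SE 0.0546, adjusted p = 0.0246). The export pump Abcc2 differed by 0.57 units (SE 0.15, adjusted p = 0.0601), Cyp3a2 by 0.52 (SE 0.141, adjusted p = 0.0675) and Por, the reductase that feeds electrons to these enzymes, by 0.26 (SE 0.0755, adjusted p = 0.0867). Those 3 had no overlap between groups and did not pass. Probe sets of the Cyp2c, Cyp3a and Ugt2b families can bind transcripts of close relatives, and their part was not tested.

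Cyp2c7, Ces2c and Abcc3, which belong to the same list, had differences of 0.001, 0.003 and 0.067 units. Cyp2b3 and Aldh1a1 had -0.31 and -0.28 units and were not called. The receptors' own transcripts were not called either, with -0.14 units for Nr1i2 (PXR) and -0.22 units for Nr1i3 (CAR). Of 12 liver nuclear receptor genes tested none was called, where 1.05% of all genes tested were called. So few genes can hold no call at that share. Targets of the aryl hydrocarbon receptor gave no call among 6 tested, against the same share of 1.05%. Cyp1a1 had 0.035 units (adjusted p = 0.929) and Cyp1a2 0.27 units (adjusted p = 0.70). The 3 rises of the PXR and CAR list ranged between 1 and 6 without single codes, were 3 without each single array, 1 without the block and 0 on the values as deposited.

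Genes that PPARalpha turns on moved downwards together. Of 23 tested, 9 fell and none rose, where 0.439% of all genes tested fell and 0.61% rose. All 23 differences were negative, as were 5410 of all 10490. A nearly uniform sign was not particular to this list. Of 22 mitochondrial respiration genes 21 were negative, and of 17 retinoid genes 15, with smaller medians of -0.061 and -0.088 units. For the 23 PPARalpha targets the size differed as well. Their median was -0.341 units, against -0.002 over all genes. For 22 of these 23 targets the difference was negative within all 3 codes, as for 2217 of all 10490 genes tested. The 9 that fell are Cyp4a1 and Cyp4a3 (fatty acid omega-hydroxylases), Ech1, Eci1 and Decr1 (auxiliary enzymes for unsaturated fatty acids), Acaa2 (the mitochondrial thiolase of beta-oxidation), Acot2 (an acyl-CoA thioesterase), Angptl4 (a secreted inhibitor of lipoprotein lipase) and Fgf21 (a fasting hormone). Less of a transcript per cell and fewer cells that carry it cannot be told apart in such bulk RNA.

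Cyp4a1 had 0.37, 1.13 and 1.17 units with triadimefon, against 1.34, 1.92 and 2.07 units with DMSO (difference -0.89, SE 0.202, adjusted p = 0.0282). Cyp4a3 had 2.05, 2.01 and 2.14 units with triadimefon, against 2.73, 2.73 and 2.89 units with DMSO (difference -0.72, SE 0.166, adjusted p = 0.0293). Both lay lower with triadimefon on every array, and the Rs256 arrays of Cyp4a1 were the lowest of each group. Ech1 had 1.68, 1.88 and 2.18 units with triadimefon, against 2.21, 2.47 and 2.75 units with DMSO (difference -0.56, SE 0.102, adjusted p = 0.00701). Its 3 differences within a code lay closer together than its levels. Angptl4 had 1.45, 1.91 and 1.46 units with triadimefon, against 2.14, 2.21 and 2.07 units with DMSO (difference -0.53, SE 0.118, adjusted p = 0.0246), and Fgf21 had 0.92, 1.45 and 1.34 units with triadimefon, against 1.60, 1.98 and 1.48 units with DMSO (difference -0.45, SE 0.102, adjusted p = 0.0282). Acaa2, Eci1, Decr1 and Acot2 differed by -0.32, -0.34, -0.33 and -0.35 units.

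Other members were far lower in the mean but varied more between codes. Fabp1, the liver fatty acid binding protein, had 1.11, 0.93 and 1.10 units with triadimefon, against 1.37, 2.03 and 1.95 units with DMSO (difference -0.74, SE 0.199, adjusted p = 0.0644). Cpt1a, which admits fatty acids to mitochondria, differed by -0.53 units (adjusted p = 0.142) and Pdk4, which spares glucose, by -0.50 (adjusted p = 0.266). For Fabp1, Cpt1a and Pdk4 the difference within Rs256 was the smallest of the 3. The transporter Cd36 differed by -0.41 units (adjusted p = 0.251). Hadha, Hadhb, Acadl and Cpt2 had the smaller differences of -0.18, -0.15, -0.11 and -0.098 units.

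The count of 9 PPARalpha targets fell to 0 without Rs256, 7 without Rs293 and 2 without Rs304, and to between 1 and 3 without single arrays. It was 0 without the replicate block and 0 on the values as deposited. All 23 differences stayed negative under each of these alternatives, with medians between -0.376 and -0.269 units. For the 22 targets negative within every code, leaving out a code could not change the sign.

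**Figure D3:**
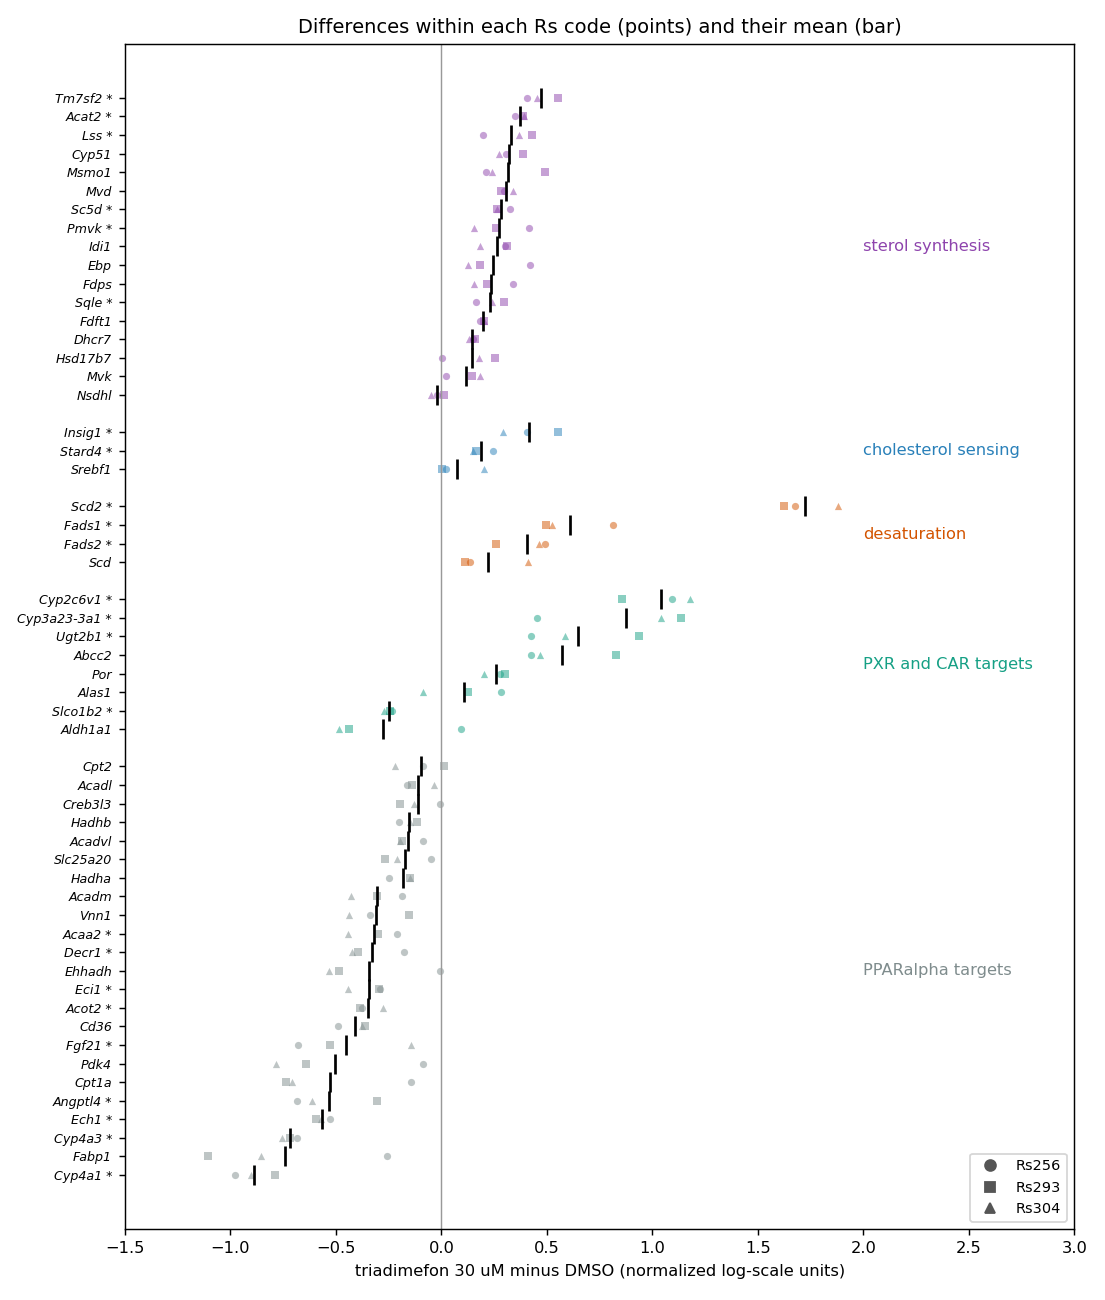
Triadimefon 30 uM minus DMSO (normalized log-scale units) within each Rs code (points, shape by code) and their mean (bars) for all tested sterol synthesis and PPARalpha target genes and for selected members of 3 other lists; an asterisk marks a called gene. Points of the sterol genes lie between about 0 and 0.6 units, those of Scd2 above 1.5, and nearly all points of the PPARalpha targets lie left of 0.

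Among the 15 largest falls, and outside these lists, were Slc27a2, which activates very long chain fatty acids, Acot4, a peroxisomal thioesterase, Hao1, the peroxisomal glycolate oxidase, Gk, glycerol kinase, and Glrx, a thiol oxidoreductase. Slc27a2 had 1.91, 1.99 and 2.28 units with triadimefon, against 2.54, 2.58 and 2.87 units with DMSO (difference -0.60, SE 0.109, adjusted p = 0.00701). Acot4 had 0.63, 0.65 and 0.68 units with triadimefon, against 1.02, 0.99 and 1.13 units with DMSO (difference -0.39, SE 0.0773, adjusted p = 0.0107). Hao1, Gk and Glrx differed by -0.42, -0.39 and -0.43 units.

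Small sets of bile acid, retinoid and steroid genes also included falls. Among 14 genes that make or carry bile acids, 2 fell and none rose, where 0.439% of all genes tested fell. Baat, which joins bile acids to taurine and glycine, had 1.34, 1.60 and 1.61 units with triadimefon, against 1.84, 2.02 and 2.37 units with DMSO (difference -0.56, SE 0.126, adjusted p = 0.0282). Akr1d1, a steroid reductase of bile acid synthesis, differed by -0.26 units (SE 0.0596, adjusted p = 0.0298). Cyp7a1, the rate-limiting enzyme, had -0.13 units (SE 0.254, adjusted p = 0.903) and Cyp8b1 -0.64 units (SE 0.166, adjusted p = 0.0586). None of this list was called without Rs256, without Rs304 or without any single array.

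Of 17 retinoid genes, 2 fell and none rose, where 0.439% of all genes tested fell. Rdh7, a retinol dehydrogenase, had 1.63, 0.996 and 0.84 units with triadimefon, against 2.18, 1.78 and 1.48 units with DMSO (difference -0.66, SE 0.143, adjusted p = 0.0246). Its groups overlapped through the Rs256 triadimefon array, and it was lower in all 3 codes. Retsat, retinol saturase, differed by -0.39 units (SE 0.0947, adjusted p = 0.0387). Of 16 steroid metabolism genes, 3 fell and none rose, where 0.439% of all genes tested fell. They were Akr1d1, already counted among the bile acid genes, and the rat hydroxylases Cyp2c13 (difference -0.37, SE 0.0684, adjusted p = 0.00787) and Cyp2a2 (difference -0.26, SE 0.0648, adjusted p = 0.0488). None of the retinoid or steroid genes was called without Rs256 or without Rs304.

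Cxcl9, a chemokine induced by interferon gamma, gave the second largest rise. It had 1.49, 1.69 and 1.73 units with triadimefon, against 0.25, 0.54 and 0.64 units with DMSO (difference 1.16, SE 0.169, adjusted p = 0.00129). Every triadimefon array was above every DMSO array. Cxcl9 was called on the values as deposited too, but not without the block (adjusted p = 0.27) or without Rs256 (adjusted p = 0.115). It was the only call among 16 chemokine and interferon genes, where 0.61% of all genes tested rose. The median difference of these 16 was -0.047. Its relatives Cxcl10 and Cxcl11 had differences of -0.094 and -0.095 units, and the interferon target Irf1 had -0.001. Isg15, Mx2, Ifit1, Ifit3 and Irf7 were high on the DMSO array of Rs256, and without Rs256 the difference of Mx2 changed sign, with -0.30 units over all codes and 0.042 units without it. Isg15 had 0.88, 0.095 and 0.17 units with triadimefon, against 2.38, 0.24 and 0.25 units with DMSO.

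Other large rises were those of Fabp5, an intracellular fatty acid carrier, Ggt1, which cleaves glutathione, Cdh13, a cadherin, Grk5, a receptor kinase, and Duoxa1, a maturation factor of hydrogen peroxide producing oxidases. Fabp5 had 2.92, 2.35 and 2.53 units with triadimefon, against 2.12, 1.89 and 1.89 units with DMSO (difference 0.63, SE 0.119, adjusted p = 0.00799). Ggt1 had 1.06, 1.35 and 1.32 units with triadimefon, against 0.66, 0.62 and 0.72 units with DMSO (difference 0.58, SE 0.139, adjusted p = 0.0365). Cdh13, Grk5 and Duoxa1 differed by 0.55, 0.54 and 0.45 units, with adjusted p of 0.0412, 0.0246 and 0.0137. The groups of Fabp5, Ggt1, Cdh13 and Grk5 did not overlap, and those of Duoxa1 did. Among 14 acute phase genes only Crp, C-reactive protein, was called, where 0.61% of all genes tested rose. Crp had 3.41, 3.37 and 3.28 units with triadimefon, against 3.02, 3.09 and 2.9 units with DMSO (difference 0.35, SE 0.0677, adjusted p = 0.00885).

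Of 19 targets of NRF2, the factor of the oxidant response, 2 rose and none fell, where 0.61% of all genes tested rose. The median difference was 0.16. Gsta4, a glutathione transferase for lipid aldehydes, differed by 0.42 units (SE 0.1, adjusted p = 0.036) and Srxn1, which repairs oxidized peroxiredoxins, by 0.33 units (SE 0.0717, adjusted p = 0.0246). Gstm2 and Hmox1 had 0.52 and 0.39 units with adjusted p of 0.0719 each, while Txnrd1 had 0.001 units. The median of this list fell to 0.067 units without Rs256, and no member was called without Rs256 or without Rs304. No gene was called among 25 of endoplasmic reticulum stress, 13 targets of p53, 10 of the cell cycle, 22 of mitochondrial respiration and 8 ribosomal proteins. As 1.05% of all genes tested were called, lists of these sizes can hold no call at that share. The lack of calls thus does not show that these genes were unaffected. The 22 respiration genes had a median of -0.061 units, which was -0.005 on the values as deposited.

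Hepatocyte markers differed in level. Apoa1, Ttr and Serpina1 lay at 3.48 units or more above the array median on all 6 arrays, Apoa2 at 0.51 to 2.47 units and Cyp2e1, a marker of hepatocytes in intact liver, at 0.026 to 0.42 units. None of 25 hepatocyte function genes tested was called, where 1.05% of all genes tested were called. Among the 25 was Alb, which normalization held at 1 value so that it could not differ. Differences were negative for 19 and positive for 5, with a median of -0.051 units. Cyp2d3 differed by -0.55 units (SE 0.149, adjusted p = 0.0679) without overlap between groups. The summed level of the 25 was 66.8 to 71.8 units with triadimefon and 69.3 to 73.6 units with DMSO. The summed level of 16 macrophage markers was -0.151 to 2.41 units with triadimefon and 0.007 to 2.43 units with DMSO. Cd14, Lyz2 and C1qb lay above the array median on all 6 arrays, and Cd68 and Aif1 on 5. Clec4f lay above it on 2 and Csf1r on 1. Cd163, Adgre1, Cd74, Ptprc, C1qa, C1qc, Tyrobp, Fcer1g and Itgam lay above it on none. Mpeg1, a gene known from macrophages, fell by 0.42 units (SE 0.0746, adjusted p = 0.00612) and its relation to these cells was not tested. Sums of 15 stellate, 12 endothelial and 9 cholangiocyte markers overlapped between the groups, and none of the 10, 2 and 6 of these genes that were tested was called, nor any of the 7 macrophage markers tested. So few genes can hold no call where 1.05% of all genes tested were called. Vim, known from stellate and other mesenchymal cells, lay at 2.33 to 2.89 units on the 6 arrays, the highest of the stellate list. Acta2, Timp1 and Sparc also lay above the array median on all 6, and Col1a1, Col1a2, Lum, Dcn, Lrat and Thy1 below it. Epcam, known from cholangiocytes, lay at 1.96 to 2.14 units, the highest of its list. Cftr, Spp1, Cldn7 and Muc1 lay below the array median on all 6 arrays. The cells that Vim and Epcam came from were not tested. The 3′ minus 5′ difference of Actb, a measure of RNA integrity, averaged 0.687 ± 0.11 units with triadimefon and 0.766 ± 0.038 units with DMSO (SD, n = 3 each; exact permutation test, two-sided, p = 0.3, where 0.1 is the smallest p possible). For Gapdh it averaged 0.196 ± 0.037 units with triadimefon and 0.188 ± 0.056 units with DMSO (SD, n = 3 each; exact permutation test, p = 0.8).

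Levels at 30 uM were next set against the doses on either side, in differences that leave out the DMSO mean. The DMSO arrays still entered the fit, and with it the SEs and p-values. Against 10 uM no gene was called (0.0%) by limma, with 166 genes at an unadjusted p below 0.05, where chance alone would give about 524. Against 100 uM, 4 genes were called (0.0381%), with 1005 at an unadjusted p below 0.05. Fads2 was lower at 30 than at 100 uM, by 0.45 units (SE 0.068, adjusted p = 0.00696). Its levels were 0.40, 0.70 and 0.58 units in DMSO, 0.58, 0.81 and 0.86 units at 10 uM, 0.89, 0.96 and 1.04 units at 30 uM and 1.48, 1.39 and 1.37 units at 100 uM. The other 3 were Nhej1, a DNA repair gene, lower at 30 uM by 0.19 units, and Usp54 and Fgr, higher at 30 uM by 0.17 and 0.22 units. The 4 calls fell to 0 without Rs256, without Rs304, without the block, as deposited, and without the 30 uM array of Rs293 or the 100 uM array of Rs256. They fell to 1 without the 30 uM array of Rs256 or Rs304 and to 2 without the 100 uM array of Rs304. Without Rs293 there were again 4 calls, but 0 of them were among these 4, and without the 100 uM array of Rs293 there were 5 calls, of which 2 were among these 4.

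The other members differed by dose in the mean without passing the test. Scd2 averaged 0.51 ± 0.43 units in DMSO, 1.52 ± 0.31 units at 10 uM, 2.24 ± 0.30 units at 30 uM and 2.59 ± 0.13 units at 100 uM (SD, n = 3 each). At 30 uM it was 0.72 units above 10 uM (95% interval 0.34 to 1.10, adjusted p = 1) and 0.35 units below 100 uM (difference -0.35, interval -0.74 to 0.027, adjusted p = 0.548). Ces1d averaged 1.60 ± 0.24, 0.90 ± 0.13, 0.51 ± 0.076 and 0.077 ± 0.051 units over the same 4 steps. Angptl4 averaged 2.14 ± 0.072, 1.75 ± 0.092, 1.61 ± 0.26 and 1.20 ± 0.17 units. Cyp3a23-3a1, by contrast, averaged 2.78 ± 0.46, 3.52 ± 0.14, 3.66 ± 0.11 and 3.69 ± 0.032 units, and its level at 30 uM differed from that at 100 uM by -0.027 units (interval -0.34 to 0.29). Its levels with triadimefon lay near the top of the scale. There Apoa1, at 3.63 to 3.96 units on the triadimefon 30 uM and DMSO arrays, ranked 3 to 29 of 14217 genes. Whether a ceiling narrowed the differences between doses was not tested. Ugt2b1 averaged 2.45 ± 0.13, 2.98 ± 0.080, 3.10 ± 0.14 and 3.01 ± 0.17 units.

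**Figure D4:**
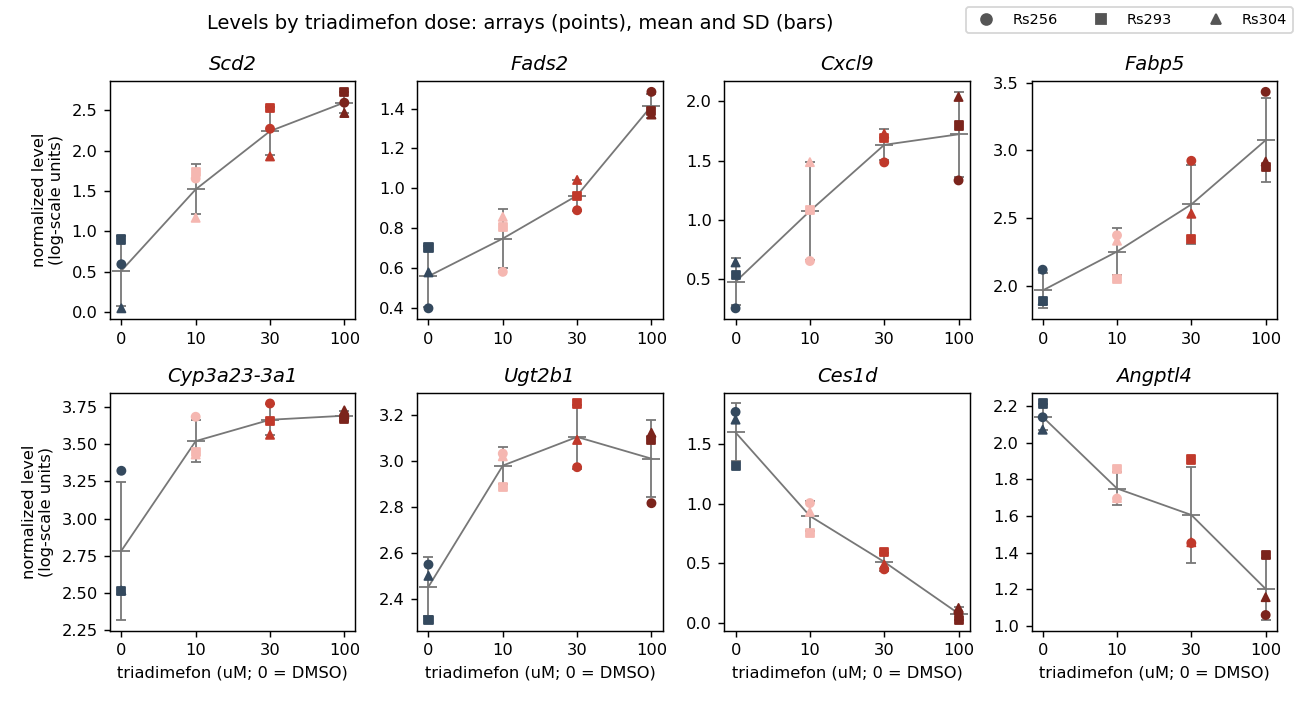
Normalized level (log-scale units) of 8 genes in DMSO (0) and at 10, 30 and 100 uM triadimefon; points are arrays with shape by Rs code, and bars are the mean and SD of 3 arrays. Scd2, Fads2 and Fabp5 have higher means at each dose, Ces1d and Angptl4 lower ones, and Cyp3a23-3a1 and Ugt2b1 have nearly the same means at 10, 30 and 100 uM.

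Triadimefon was compared at 30 uM with 2 other triazoles at the same dose and time, again as differences that leave out the DMSO mean, from the same fit over all arrays. Beside the triazole ring triadimefon carries a ketone and a chlorophenoxy group, myclobutanil a nitrile, and propiconazole a dioxolane ring. No gene was called against myclobutanil (0.0%) or against propiconazole (0.0%) by limma, also with p-values adjusted over both pairs together. The unadjusted p lay below 0.05 for 389 and 210 genes, where chance alone would give about 524 in each pair. Against myclobutanil, Scd2 differed most of the named genes, with 2.27, 2.52 and 1.93 units with triadimefon, against 1.43, 1.69 and 0.80 units with myclobutanil. The difference was 0.94 units (95% interval 0.55 to 1.32, adjusted p = 0.307). Insig1, Fads1, Fads2 and Acat2 differed by 0.30 (interval 0.17 to 0.44), 0.41 (0.20 to 0.62), 0.29 (0.15 to 0.43) and 0.26 units (0.13 to 0.39), with adjusted p of 0.307 to 0.667. Cyp51 differed by 0.19 units (interval -0.004 to 0.38).

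For the drug metabolism genes the differences from myclobutanil were smaller or ran the other way. Cyp3a23-3a1 differed by 0.050 units (interval -0.27 to 0.37), Ugt2b1 by -0.078 (interval -0.28 to 0.12) and Cyp2c6v1 by -0.33 (interval -0.60 to -0.068), none of them called. On the Rs293 arrays Cyp3a23-3a1 had 3.652 units with triadimefon, myclobutanil and propiconazole alike at 30 uM, near the top of the scale. Whether a ceiling narrowed its differences was not tested. Against propiconazole, Scd2 differed by 0.23 units (interval -0.16 to 0.61), Acat2 by -0.005 (interval -0.13 to 0.12), Ces1d by -0.004 (interval -0.42 to 0.41) and Cyp2c6v1 by -0.36 (interval -0.63 to -0.096). On the values as deposited Scd2 differed from propiconazole by 0.0 units, and Insig1 and Cyp51, at 0.11 and 0.041 units after quantile normalization, by -0.36 and -0.34 units, all uncalled. As deposited, the propiconazole 30 uM array of Rs293 had the widest spread of all 35 arrays, with an SD of 0.941. Those of Rs256 and Rs304 had 0.734 and 0.646. The part of the Rs293 array in these shifts was not tested. For Ces1d, the interval did not exclude differences of up to about 0.4 units either way with 3 arrays a group. It is not a limit of detection, as larger differences can go uncalled after adjustment. Fabp1, at -0.74 units against DMSO, is an example. These intervals are for single genes and are not adjusted for the number of genes. A missed threshold does not show that the compounds act alike.

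**Figure D5:**
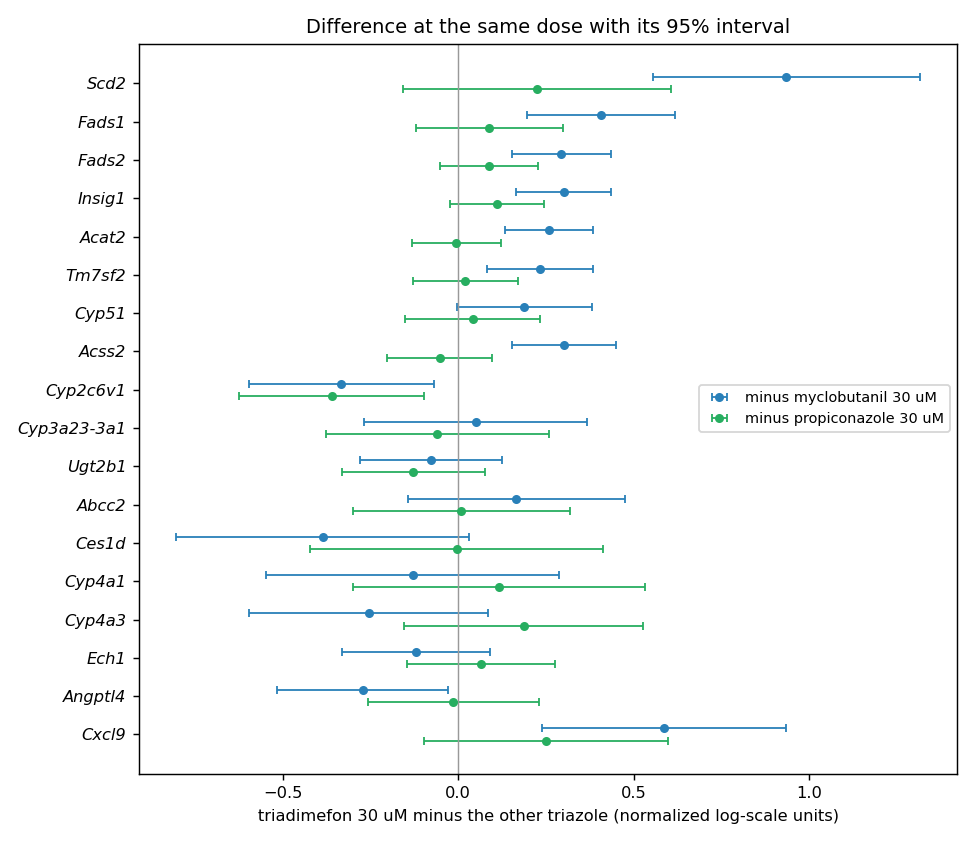
Triadimefon 30 uM minus myclobutanil 30 uM (blue) and minus propiconazole 30 uM (green) in normalized log-scale units for 18 genes, with the unadjusted 95% interval of the fit over 3 arrays a group. Intervals for Scd2, Fads1, Fads2, Insig1, Acat2, Tm7sf2, Acss2 and Cxcl9 lie right of 0 against myclobutanil, that for Angptl4 lies left of 0 against myclobutanil, and those for Cyp2c6v1 lie left of 0 against both compounds; no difference passed adjustment over all genes.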

How the data were processed

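Total RNA from primary hepatocytes was labelled with biotin and hybridized to the arrays, per the labels' protocols. The values the authors deposited are a score on a log-like scale per probe set, with array medians between -0.0338 and 0.0223 and array SDs between 0.646 and 0.941; the base, probe summary, background correction and normalization are not given in the sources used here. The table held 31099 probe sets, 57 of them controls. The platform annotation named 1 gene for 20826 probe sets, several for 436 and none for 9780; 20758 matched the reference gene table by identifier. A gene was represented by its probe set of highest mean, and 10490 of 14217 genes were tested because they lay above the array median on at least 2 of 35 arrays. Genes of the lists with no such row were not analysed here.

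Arrays were quantile-normalized, which holds Alb at 1 value on every array, so that Alb was not measured. Fits used limma 3.58.1 in R 4.3.3 (lmFit and eBayes) over all 35 arrays with 12 group means and the Rs code as a fixed replicate block, two-sided, with Benjamini-Hochberg adjustment within each of 5 comparisons. The code was tested on simulated data. Pairing rests on the codes in the titles. Deviations of triadimefon and DMSO arrays from their group means correlated at r = 0.804, 0.65 and 0.672 across genes for arrays of the same code. For different codes r was -0.584 to 0.148. The contrast is in part arithmetic: deviations of a gene sum to 0 within a group. Positive values for the same code thus push those for different codes below 0. The median SE was 0.0462 with the block and 0.0645 without. For called genes with further probe sets tested (32), 44 of 45 of these had the same sign, and 10 were called.

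Named genes were the 15 largest rises and 15 largest falls among called genes of 1 sign in all codes, called members of the gene lists, a set of key genes, the called genes of the other comparisons and up to 4 uncalled members of each list. The members, lists and key genes were chosen with earlier results of these data known. Alternatives were the block, normalization, filter, probe set rule, groups in the fit, variance model, array weights and leaving out arrays. Precision is limited by the number of arrays.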

Additional observations from a re-analysis of the deposited data

Results flagged for a closer look

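Of all results, 4 single genes differed between triadimefon doses by the test of the difference itself (30 uM minus 100 uM, limma with the replicate block). Fads2 differed by -0.45 units, with 0.89, 0.96 and 1.04 units at 30 uM and 1.48, 1.39 and 1.37 units at 100 uM. Nhej1 differed by -0.185 units (SE 0.0324, adjusted p = 0.0304), with 0.21, 0.084 and 0.084 units at 30 uM and 0.35, 0.30 and 0.27 units at 100 uM. Usp54, which belongs to the ubiquitin protease family by its name, differed by 0.166 units (SE 0.0299, adjusted p = 0.0304), with 0.29, 0.26 and 0.28 units at 30 uM and 0.12, 0.095 and 0.12 units at 100 uM. Fgr, a tyrosine kinase of the Src family, differed by 0.223 units (SE 0.0408, adjusted p = 0.0304), with 0.62, 0.67 and 0.64 units at 30 uM and 0.30, 0.52 and 0.45 units at 100 uM. Without the block the adjusted p was 0.594 for Fads2, Usp54 and Fgr and 0.999 for Nhej1. Groups of 3 arrays are too small for a test of single outlying arrays.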

How the results depend on the processing

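Against DMSO, the count of 110 calls (64 higher, 46 lower) became 3 (3 higher, 0 lower) without the replicate block, 68 (all also among the 110) with the code as a random effect, 3 (3 and 0) as deposited and 3 (3 and 0) with median centring. It became 175 (63 of them among the 110) with the 2 groups alone and the block, and 1034 with array weights, whose estimation did not fully converge. Leaving out codes or single arrays gave 7 to 143. With 2 alternatives added after seeing the data, the values as deposited gave 0 calls without the block (315 genes at an unadjusted p below 0.05) and 90 (65 higher, 25 lower) with the 2 groups alone and the block. Chance alone would give about 524 genes at an unadjusted p below 0.05. Other filters, probe set rules and variance models gave 100 to 134. Against 10 uM, 0 calls became 7 with the 2 groups alone. Against 100 uM, 4 calls became 0 without the block, as deposited, as deposited without the block, and with the 2 groups alone on either scale, 1 with median centring, 1128 with array weights, and 0 to 5 when arrays were left out. Against myclobutanil, 0 calls became 1 with the 2 groups alone on either scale, 7 with array weights and 0 to 1 when arrays were left out; against propiconazole the count was 0 throughout. Of the single-gene values under these alternatives, 7958 kept direction and side of the threshold, 639 kept direction but no longer passed and 83 newly passed. No value called in either fit changed sign, but 378 of 9058 values changed sign and passed in neither. Of these, 201 were against propiconazole, in 47 genes, and 51 against DMSO, in 15 genes. Against DMSO these included Srebf2 (-0.024, and up to 0.030), Nsdhl (-0.020, 0.048 as deposited), Mx2 (-0.30, 0.042 without Rs256), Irf7 (-0.22, 0.058), Cyp1a1 (0.035, -0.013) and Ddit3 (0.066, down to -0.024). Of the 48 called genes named by rule, 39 passed with the 2 groups alone, 3 without the block and 2 as deposited. The cause of these changes was not tested; fewer arrays enter each fit that leaves some out. Precision is limited by 3 arrays a group, and no background level was used here to bound dim genes.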

Other observations

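Among the 62 called genes that the naming rule did not cover, the following were chosen after their values were seen. Acat1, the mitochondrial acetoacetyl-CoA thiolase of ketone body metabolism, had 1.31, 1.28 and 1.35 units with triadimefon, against 1.66, 1.66 and 1.65 units with DMSO. Its cytosolic relative Acat2 rose, while Acat1 fell, and neither gene's groups overlapped. Glyat and Acsm2, which join carboxylic acids to glycine and to coenzyme A, had lower values in all 3 codes. Glyat had 0.079, -0.11 and -0.073 units with triadimefon, against 0.49, 0.094 and 0.23 units with DMSO. Acsm2 had 0.38, 0.26 and 0.097 units with triadimefon, against 0.71, 0.74 and 0.39 units with DMSO. Gpt2, the mitochondrial alanine aminotransferase, had 1.15, 1.46 and 1.32 units with triadimefon, against 1.55, 1.75 and 1.61 units with DMSO. Cyb5a, cytochrome b5, which passes electrons to desaturases and cytochromes P450, was higher with 3.17, 3.13 and 3.16 units, against 2.77, 2.85 and 3.09 units with DMSO. Pdp2, a phosphatase that activates pyruvate dehydrogenase, was higher with 1.05, 0.84 and 0.82 units, against 0.59, 0.66 and 0.57 units with DMSO.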
